A study of Homo sapiens with 4 samples.

Results

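The liprins are scaffold proteins encoded in human by the α-liprin genes PPFIA1, PPFIA2, PPFIA3 and PPFIA4 and the β-liprin genes PPFIBP1 and PPFIBP2. All 6 were found by symbol among the 16376 genes of the table. The family was taken up because the FPKM of PPFIA4 was lower in fluoxetine-treated than in PBS-treated cells, and the question was whether its paralogues, which were chosen by name, shared this fall. The contrast that chose PPFIA4 is therefore given for that gene as a description, with no test. RNA was sequenced from LASCPC-01, a cell line of neuroendocrine prostate cancer (NEPC) made with MYCN and activated AKT1, which all samples carry, and labelled with a WT genotype. The 2 control samples received PBS and the 2 treated samples received fluoxetine, an antidepressant that blocks serotonin reuptake. The treatment tag of the treated samples names fluoxetine, whereas their titles carry PP, which the labels do not explain. All titles give day 3, whereas the study's text gives 5 µM for 48 h. The samples came from 1 line, and nothing says whether replicates were separate cultures, so p-values measure the spread between these samples, which may be technical.

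α-Liprins carry a coiled-coil region that binds presynaptic scaffolds and motor proteins, and SAM domains that bind the LAR-type receptor tyrosine phosphatases. At synapses they help to build the active zone, where neurotransmitter is released, and in non-neuronal cells they sit with ERC1 and the LL5 proteins at the cell edge, where microtubules are held near focal adhesions. β-Liprins have a similar layout and pair with α-liprins through the SAM domains. PPFIA1 is broadly expressed, PPFIA2 and PPFIA3 are best known from neurons, and PPFIA4 is also found on common lists of hypoxia-induced transcripts.

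The coding sequences of the family were similar without being near-identical. Over the longest coding sequence of each gene in GENCODE 29, PPFIA4 shared 71.0% of aligned bases with PPFIA3, 69.9% with PPFIA1 and 68.7% with PPFIA2, and 60.3% and 64.1% with PPFIBP1 and PPFIBP2. No stretch of 75 bases was shared between the transcripts of any pair of members (0 of 10196 distinct stretches of PPFIA4 in each comparison). In the GENCODE 29 annotation of GRCh38, PPFIA4 lies on the plus strand of chromosome 1 from 203026498 to 203078740 and shares 0 exon bases with another gene. PPFIA1 and PPFIA2 share 690 and 1758 of their exon bases with other genes. Reads on these bases could have been set aside or credited to either gene, as the counting mode is not stated.

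The 250 bases before the RefSeq start sites of PPFIA4 and PPFIA1 (GRCh38.p14, plus strand) are shown because these are the α-liprin with the largest difference between the groups and the α-liprin with the highest level. Capitals mark ACGTG and GCGTG on either strand, the core letters to which hypoxia-inducible factors bind. The first window is chr1:203026241-203026490 and the second is chr11:70270440-70270689.
PPFIA4: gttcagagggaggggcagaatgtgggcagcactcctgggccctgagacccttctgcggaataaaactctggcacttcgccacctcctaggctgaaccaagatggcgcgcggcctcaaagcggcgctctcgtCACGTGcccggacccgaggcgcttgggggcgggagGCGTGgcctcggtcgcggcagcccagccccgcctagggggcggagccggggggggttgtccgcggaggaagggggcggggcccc
PPFIA1: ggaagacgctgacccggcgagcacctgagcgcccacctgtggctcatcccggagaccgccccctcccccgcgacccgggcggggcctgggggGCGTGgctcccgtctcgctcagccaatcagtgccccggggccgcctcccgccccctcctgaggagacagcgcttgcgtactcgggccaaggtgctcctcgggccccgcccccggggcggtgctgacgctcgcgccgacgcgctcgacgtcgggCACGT

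PPFIA4 held the palindrome CACGTG, which contains ACGTG on both strands and starts 119 bases before the start site, and 1 GCGTG. PPFIA1 held 1 ACGTG and 1 GCGTG and no CACGTG. PPFIA2 held 1 ACGTG and 2 GCGTG, PPFIA3 held 1 GCGTG, and neither held CACGTG. PPFIBP2 held ACGTG only within a CACGTG and held no GCGTG. Binding of any factor to these letters was not tested. Among the first windows of the 6 genes, CACGTG was found in those of PPFIA4 and PPFIBP2, as in 6.46% of 27305 promoters of the same length, and PPFIBP1 held none of the 3 motifs. ACGTG occurred in 18.6% and GCGTG in 31.9% of these promoters. The promoters were not matched for base content. G and C made up 71.6% of the PPFIA4 window and 76% of the PPFIBP2 window, against a median of 57.6% over all promoters. The short windows around CACGTG, chr1:203026362-203026387 and chr11:7513926-7513951 on the plus strand, differ in the flanking letters, and capitals mark the palindrome.
PPFIA4: gcgctctcgtCACGTGcccggacccg
PPFIBP2: cccgccccgtCACGTGggcgccggcc

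The libraries had been divided by depths of 32873603 to 34831389 reads, which were recovered from the FPKM together with the whole reads of each gene. Neuroendocrine markers were present, with a mean of 48.6 FPKM for NCAM1 and 22.9 FPKM for INSM1, and SYP (0.451 FPKM) and CHGA (0.0401 FPKM) were low. Of the luminal markers, KRT8 had a mean of 442 FPKM. Summed leukocyte markers had 2.77 to 3.97 FPKM with PBS and 2.76 to 3.62 FPKM with fluoxetine, almost all of it CD68. Fibroblast markers had 2.75 to 2.94 and 1.90 to 2.79 FPKM, almost all of it COL1A1. In bulk RNA, fewer cells of a type and less RNA per cell cannot be told apart. Gene length moved with the libraries. Log2 gene length correlated with how far genes lay from their own mean most strongly in fluoxetine replicate 1 (-0.285) and PBS replicate 2 (0.189), as a description across 12663 genes of the same libraries. The recovered lengths of the liprins were 4738 to 8289 bases, against a median of 3819 bases for all genes above 0.

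PPFIA4 ranked between PPFIBP1 and PPFIA3 in PBS-treated cells and was lower in fluoxetine-treated cells. Its FPKM was 2.27 and 2.44 in the PBS libraries and 0.856 and 0.790 in the fluoxetine libraries. Both fluoxetine libraries were far below both PBS libraries, and neither pair of replicates spread widely. These values rested on 486 and 552 reads with PBS and on 194 and 179 reads with fluoxetine. The exact Poisson 95% intervals, which cover counting error only, reached down to 2.07 FPKM in the lower PBS library and up to 0.986 FPKM in the higher fluoxetine library. The group means were 2.36 ± 0.119 FPKM (SD, n = 2) and 0.823 ± 0.0472 FPKM (SD, n = 2), which is 2.86-fold lower with fluoxetine. On the log2(FPKM + 0.1) scale the difference was -1.41 with a standard error of 0.17. Of the 12663 genes with a mean of at least 0.1 FPKM, 24 had a more negative log2 fold change.

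**Figure D1:**
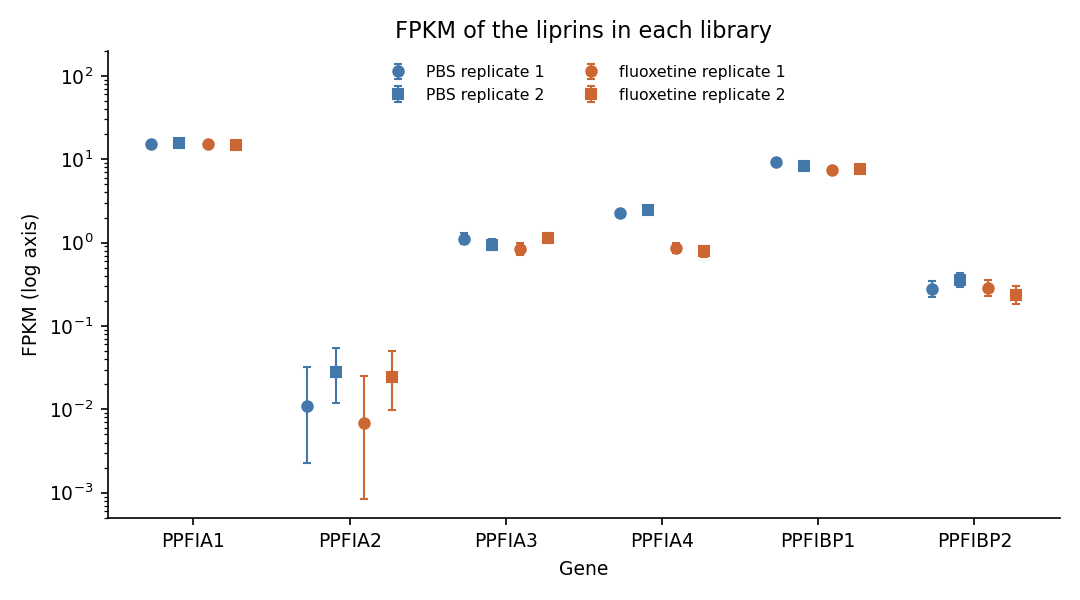
FPKM on a log axis for each liprin in the 2 PBS libraries (blue) and the 2 fluoxetine libraries (orange), with exact Poisson 95% intervals of the reads as bars. PPFIA4 lies between 2.27 and 2.44 FPKM with PBS and between 0.790 and 0.856 FPKM with fluoxetine, and PPFIA2, on 2 to 8 reads per library, has the widest bars and overlapping groups.

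PPFIA1, the broadly expressed α-liprin of the cell edge, was the most abundant member. Its FPKM was 15.4 and 15.5 under PBS and 15.0 and 14.7 under fluoxetine. The groups did not overlap, but they lay close together, with means of 15.4 ± 0.0572 and 14.9 ± 0.255 FPKM (SD, n = 2 each). The log2 fold change was -0.05 with a 95% interval of -0.23 to 0.12 (adjusted p = 0.856 from limma). With the gene length trend of each library removed, a correction chosen after seeing the data, it was 0.01.

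PPFIA3, the paralogue closest to PPFIA4 in coding sequence and best known from synapses, had 1.12 and 0.947 FPKM with PBS and 0.837 and 1.15 FPKM with fluoxetine. Its groups overlapped, because the fluoxetine libraries held both the lowest and the highest value. The log2 fold change was -0.06 with a 95% interval of -0.52 to 0.39 (adjusted p = 0.951 from limma). Leaving out 1 library changed its sign, at 0.04 without PBS replicate 1 and 0.14 without fluoxetine replicate 1, or gave -0.17 without PBS replicate 2 and -0.27 without fluoxetine replicate 2. It was 0.04 with quantile normalization.

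PPFIA2, an α-liprin of neurons, was at the limit of detection. The PBS libraries held 3 and 8 reads and the fluoxetine libraries 2 and 7, or 0.0110, 0.0278, 0.00693 and 0.0242 FPKM. The values overlapped, and the Poisson interval of the highest library (0.0120 to 0.0547 FPKM) reached into that of the lowest (0.000840 to 0.0250 FPKM). PPFIA2 had a mean below 0.1 FPKM and was left out of the limma fit on FPKM. Limma voom on its reads gave a log2 fold change of -0.39 with a standard error of 1.15 (adjusted p = 0.949). On the log2(FPKM + 0.1) scale, the pseudocount holds a gene of this level near 0 whatever its reads, so whether PPFIA2 shared the fall of PPFIA4 could not be read from it. A difference between the groups was not detectable at this depth.

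The β-liprins differed from each other in level. PPFIBP1, which joins α-liprins at the cell edge, had 9.26 and 8.18 FPKM with PBS and 7.48 and 7.74 FPKM with fluoxetine. Both fluoxetine libraries were lower than both PBS libraries, by less than the gap between the PBS libraries themselves when the nearest libraries are compared. The means were 8.72 ± 0.761 and 7.61 ± 0.180 FPKM (SD, n = 2 each), and the log2 fold change of -0.19 had a 95% interval of -0.40 to 0.02 (adjusted p = 0.602 from limma). It was -0.10 without PBS replicate 1 and -0.28 without PBS replicate 2. PPFIBP2, the other β-liprin, had 0.280 and 0.359 FPKM with PBS and 0.285 and 0.236 FPKM with fluoxetine. These overlapped, and the log2 fold change of -0.21 had a wide 95% interval of -0.89 to 0.47 (adjusted p = 0.851 from limma) on 68 to 103 reads per library. It was -0.08 without PBS replicate 2, -0.12 without fluoxetine replicate 2 and -0.35 without PBS replicate 1.

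Replicates were close to counting error for most members. Of the 12 replicate pairs, 2 differed by more in an exact binomial test of their reads against depth, two-sided and adjusted over the 12 pairs. These were the PBS pair of PPFIBP1 (1845 and 1724 reads, adjusted p = 0.00275) and the fluoxetine pair of PPFIA3 (138 and 189 reads, adjusted p = 0.0337). For PPFIA4, the adjusted p was 0.382 for the PBS pair and 0.478 for the fluoxetine pair.

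**Figure D2:**
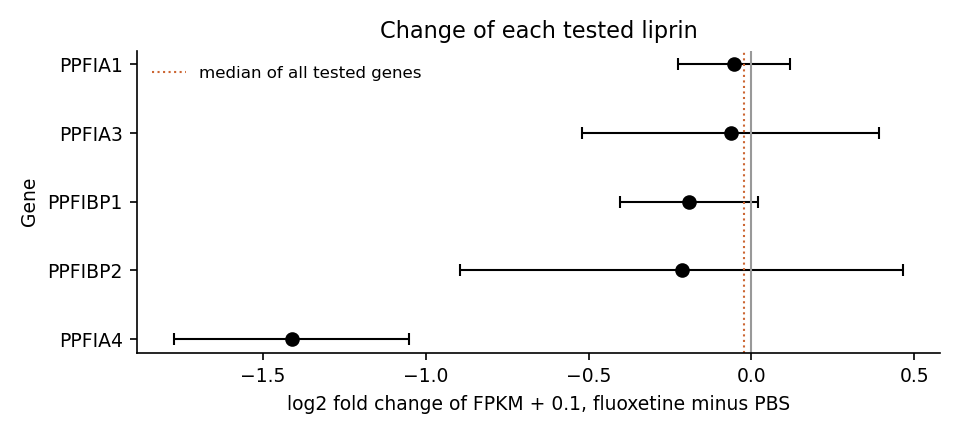
Log2 fold change of FPKM + 0.1, fluoxetine minus PBS, for the 5 liprins with a mean of at least 0.1 FPKM, with the 95% interval from limma as bars and the median of all tested genes (-0.02) as a dotted line. The 4 paralogues lie between -0.21 and -0.05 with intervals that reach past 0, and PPFIA4 lies at -1.41.

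None of the 4 paralogues tested passed an adjusted p of 0.05 in limma (0 of 4, against 0.237% of all genes tested). An unadjusted p under 0.05 was seen for 0 of 4 (against 8.51%). On the recovered reads, limma voom called 0 of the 5 paralogues (against 0.361% of the genes it tested). All 4 paralogues tested in limma had a negative log2 fold change, as did 56.5% of the genes tested. Their median was -0.13, against -0.02 for all genes tested. The median was -0.08 without PBS replicate 1 and -0.08 with the gene length trend removed, with 3 of 4 negative in each. For all genes tested it was -0.04 and 0.00 (-0.0017). The paralogue median was -0.05 with quantile normalization and -0.06 with a pseudocount of 1. After rescaling to TPM it was -0.18, against -0.07 for all genes tested. It was -0.17 without fluoxetine replicate 2, -0.13 without PBS replicate 2 and -0.12 without fluoxetine replicate 1, against -0.02, -0.01 and -0.02. For 2 of the 4, PPFIA1 and PPFIBP1, the groups did not overlap and fluoxetine was lower, as for 24.8% of the genes tested. The log2 fold changes of the 4 tested paralogues were 1.20 to 1.36 higher than that of PPFIA4, and the 95% interval of each tested paralogue lay above -1.41. PPFIA4 was chosen for its fall, and only 24 of 12663 genes tested had a more negative value. Most genes would therefore lie above it, and this distance is a description. A smaller fall of a paralogue is within these intervals. The narrowest lower bound was that of PPFIA1 (-0.23) and the widest that of PPFIBP2 (-0.89). For any single gene, the smallest two-sided p that exact permutation of 2 and 2 libraries allows is 0.333.

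The order of the levels, in FPKM and thus per length, lost its separation between neighbours at a single place with fluoxetine. With PBS it ran PPFIA1, PPFIBP1, PPFIA4, PPFIA3, PPFIBP2 and PPFIA2, and the PBS libraries of neighbours in this order did not overlap. With fluoxetine, PPFIA4 (0.790 and 0.856 FPKM) and PPFIA3 (0.837 and 1.15 FPKM) overlapped, so these neighbours did not differ beyond their spread. The ratio of PPFIA4 to PPFIA3 was 2.03 and 2.58 in the PBS libraries and 1.02 and 0.690 in the fluoxetine libraries. This rests on the fall for which PPFIA4 was chosen and is a description.

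PPFIA1 supplied most of the α-liprin FPKM in every library. The 4 α-liprins together had 18.8 and 18.9 FPKM with PBS and 16.7 and 16.6 FPKM with fluoxetine. Without PPFIA4, the sum was 16.5 and 16.4 FPKM with PBS and 15.9 FPKM in both fluoxetine libraries. Of the difference of 2.13 FPKM between the mean α-liprin sums, PPFIA4 made up 71.8% and PPFIA1 26.1%. The share of PPFIA4 in the α-liprin FPKM was 12.1% and 12.9% with PBS and 5.11% and 4.74% with fluoxetine. PPFIA1 held 81.9% in both PBS libraries and 89.8% and 88.2% in the fluoxetine libraries, while the shares of PPFIA3 (4.997% to 6.88% over the libraries) overlapped between the groups. These shares rest on the fall of PPFIA4 and are descriptions. The β-liprins made up 32.4 ± 1.79% of the FPKM of the family with PBS and 32.0 ± 0.497% with fluoxetine (SD, n = 2 each).

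**Figure D3:**
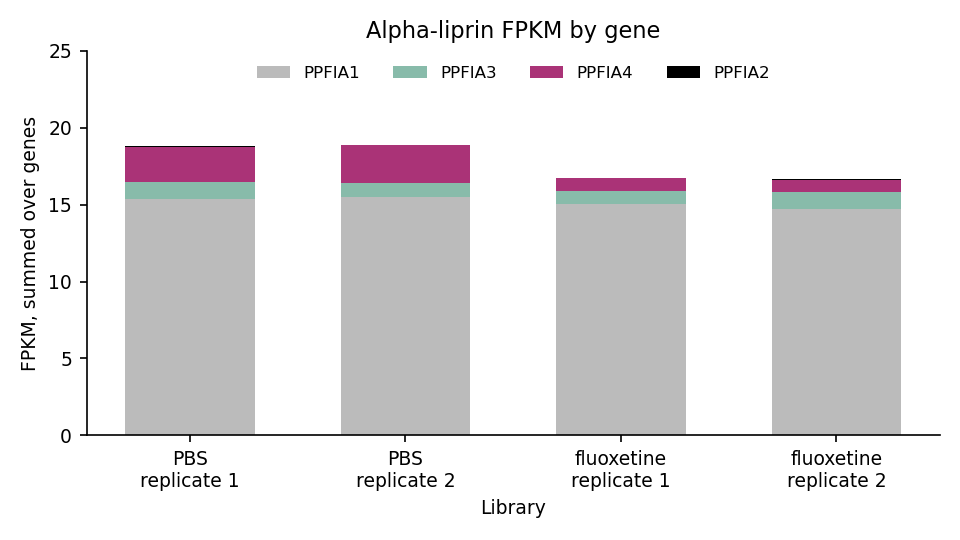
FPKM of the 4 α-liprins stacked for each library, with the height of each colour as the FPKM of 1 gene. The PPFIA1 part is of similar height in all 4 bars, and the PPFIA4 part is 2.27 and 2.44 FPKM with PBS and 0.856 and 0.790 FPKM with fluoxetine.

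The genes beside PPFIA4 on chromosome 1 had log2 fold changes closer to 0 than its own. This follows from the choice of PPFIA4 for its fall, since only 24 of 12663 genes tested had a more negative value. Of the 5 nearest listed genes on each side, 7 had a mean of at least 0.1 FPKM. None passed an adjusted p of 0.05 in limma (0 of 7, against 0.237% of all genes tested) or in limma voom (0 of 8, against 0.361%). An unadjusted p under 0.05 was seen for 0 of 7 (against 8.51%). With so few genes, counts of 0 do not set the neighbours apart from all genes tested. The median log2 fold change of the 7 neighbours was -0.03, against -0.02 for all genes tested. It was -0.07 to -0.01 with 1 library left out, and the values ran from -0.28 to 0.09. TMEM183A, which ends 1.64 kb before PPFIA4 starts, had 34.3 and 34.0 FPKM with PBS and 35.5 and 32.6 FPKM with fluoxetine. Its groups overlapped, with a log2 fold change of -0.01 (adjusted p = 0.988 from limma).

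Farther out, the adiponectin receptor gene ADIPOR1 had a log2 fold change of -0.06 (adjusted p = 0.796 from limma) and the reductase gene CYB5R1 one of 0.09 (adjusted p = 0.724). KLHL12, an adaptor for ubiquitin ligation, and RABIF, a factor that binds Rab GTPases, had -0.03 and 0.06. On the other side, the adenosine receptor gene ADORA1, 49.0 kb away, had the most negative value at -0.28 (standard error 0.29), on 31 to 48 reads per library. BTG2, an antiproliferative gene, had -0.07. CHI3L1, CHIT1 and PRELP held 0 to 6 reads per library and were left out of the limma fit on FPKM.

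**Figure D4:**
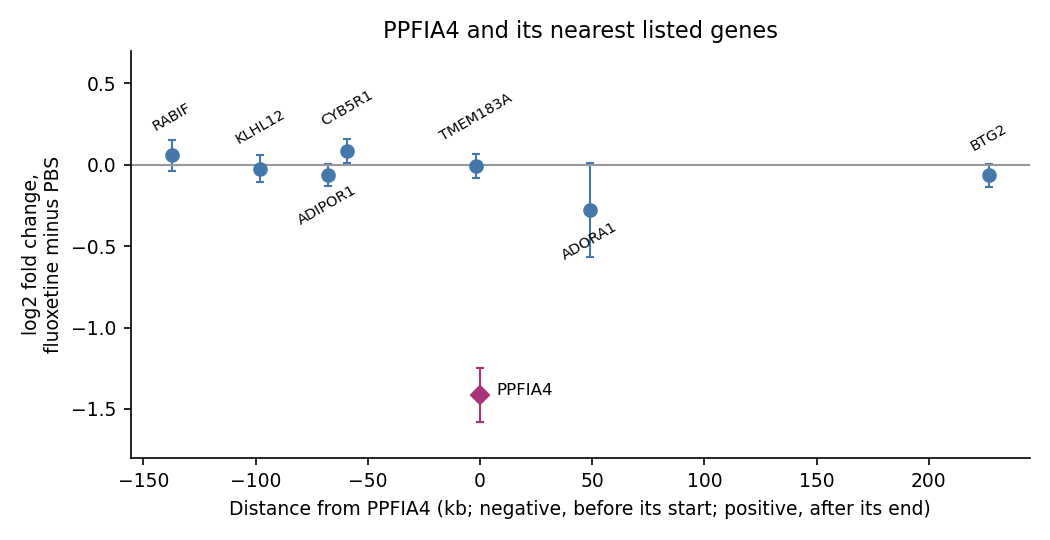
Log2 fold change, fluoxetine minus PBS, against the distance in kb from PPFIA4 for its 7 tested neighbours (blue) and PPFIA4 itself (purple), with standard errors as bars. The neighbours lie between -0.28 and 0.09 and PPFIA4, which was chosen for its fall, at -1.41.

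The LAR-type receptor phosphatases, which bind the SAM domains of α-liprins, were read next. PTPRF, which encodes LAR itself, had 37.0 and 36.4 FPKM with PBS and 29.1 and 35.6 FPKM with fluoxetine. PTPRD had 1.59 and 1.70 FPKM with PBS and 1.10 and 1.42 FPKM with fluoxetine. In both genes fluoxetine replicate 1 was the lowest library, and the groups did not overlap, as for 24.8% of all genes tested in this direction. Neither passed in limma (adjusted p = 0.593 for PTPRF and 0.580 for PTPRD), with log2 fold changes of -0.19 and -0.37. An unadjusted p under 0.05 was seen for 0 of 2, and limma voom called 0 of 3. Over all genes tested, these shares were 0.237% in limma, 8.51% unadjusted and 0.361% in limma voom. PTPRS had 0.0842 and 0.0607 FPKM with PBS and 0.0189 and 0.0151 FPKM with fluoxetine, and its mean was below the level tested. The median log2 fold change of the 2 tested genes was -0.28, against -0.02 for all genes tested. It was -0.12 without fluoxetine replicate 1, the library with the strongest length trend, -0.44 without fluoxetine replicate 2, and -0.18 with the gene length trend removed.

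The active zone scaffolds were represented by 18 genes, of which 11 were tested. None passed in limma or in limma voom (0 of 11 and 0 of 17, against 0.237% and 0.361% of all genes tested). An unadjusted p under 0.05 was seen for 1 (against 8.51%), and the median log2 fold change was -0.15. TSPOAP1, which links calcium channels to RIM proteins, was the most abundant at 45.9 and 54.6 FPKM with PBS and 47.5 and 52.7 FPKM with fluoxetine, and its groups overlapped. ERC1, a direct partner of α-liprins, had 9.36 and 8.93 FPKM with PBS and 7.23 and 8.64 FPKM with fluoxetine. LIN7B, a small PDZ protein, had the lowest unadjusted p, with 3.80 and 3.25 FPKM against 2.23 and 2.93 FPKM and a log2 fold change of -0.44 (adjusted p = 0.496 from limma). RIMS1, RIMS2 and UNC13A, which prime vesicles for release, were below 0.1 FPKM in every library, as was RIMS4.

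The groups did not overlap in 7 of the 11 tested genes, against 41.6% of all genes tested. Fluoxetine was lower in 6 of them (such as ERC1, PCLO, LIN7B and LIN7C, against 24.8%) and higher in 1, RIMS3 (against 16.7%). The median of the list was -0.08 without fluoxetine replicate 1, -0.08 without PBS replicate 2 and -0.08 with the gene length trend removed, against -0.02, -0.01 and 0.00 (-0.0017) for all genes tested. It was -0.16 without PBS replicate 1, -0.16 without fluoxetine replicate 2 and -0.20 after rescaling to TPM, against -0.04, -0.02 and -0.07. The part of the length trend in these values was not tested further.

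The cortical adhesion platform, with which PPFIA1 and PPFIBP1 sit at the edge of migrating cells, held 9 genes and all were tested. None passed in limma or in limma voom (0 of 9 in both, against 0.237% and 0.361% of all genes tested). An unadjusted p under 0.05 was seen for 1 (against 8.51%). The median log2 fold change was -0.07, against -0.02 for all genes tested. PHLDB2, which encodes the scaffold LL5β, had 0.683 and 0.712 FPKM with PBS and 0.446 and 0.366 FPKM with fluoxetine. The groups did not overlap, and the difference was -0.66 on the log2 scale with a standard error of 0.25 (adjusted p = 0.525 from limma). Its homologue PHLDB1 stayed at 19.0 and 19.3 FPKM with PBS and 19.7 FPKM in both fluoxetine libraries. TLN1, which couples integrins to actin and was the most abundant of the list, had 34.1 and 32.7 FPKM with PBS and 29.9 and 33.9 FPKM with fluoxetine. The median of the list turned to 0.02 without fluoxetine replicate 1 and to 0.02 with the gene length trend removed. It was -0.16 without fluoxetine replicate 2, -0.04 without PBS replicate 1 and -0.10 without PBS replicate 2.

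Of 13 other partners of liprins, 10 were tested and 0 passed in limma (against 0.237% of all genes tested). Of the 10, 0 had an unadjusted p under 0.05 (against 8.51%), and limma voom called 0 of 11 (against 0.361%). The median log2 fold change was -0.11, against -0.02 for all genes tested, and it was -0.01 with the gene length trend removed. It was -0.05 without fluoxetine replicate 1, -0.18 without fluoxetine replicate 2 and -0.07 without PBS replicate 2. KIF1A, a motor of synaptic vesicle precursors, was the most abundant at 161 and 164 FPKM with PBS and 141 and 163 FPKM with fluoxetine. GIT1, an adaptor at focal adhesions and synapses, had 59.8 and 61.6 FPKM with PBS and 56.1 and 58.8 FPKM with fluoxetine. This was a difference of -0.08 on the log2 scale (adjusted p = 0.741 from limma). TANC2, a postsynaptic scaffold, had the most negative value of the list at -0.23 (adjusted p = 0.611). GRIP1, a PDZ scaffold for glutamate receptors, had a value of 0.12 (adjusted p = 0.865).

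PPFIA4 is often listed with genes induced by hypoxia-inducible factor (HIF), and 14 of these were read as a list, all of them tested. In limma 5 passed and all 5 fell (against 0.213% of all genes tested), and 0 rose (against 0.0237%). By limma voom 8 passed (against 0.361% of the genes it tested). An unadjusted p under 0.05 was seen for 13, all of them lower (against 4.79%) and 0 higher (against 3.73%), and the median log2 fold change was -0.53, against -0.02 for all genes tested. The 5 were CA9, a carbonic anhydrase (-2.04, adjusted p = 0.00704 from limma), NDRG1, a stress-response gene (-1.36, 0.00730), ALDOC, a glycolytic aldolase (-1.25, 5.4e-05), BNIP3, a mitophagy receptor (-0.57, 0.00704), and P4HA1, a collagen prolyl hydroxylase (-0.56, 0.0170). The list was drawn up with earlier results of these data known, which included a fall of hypoxia genes, and it is not independent evidence of that direction. No gene of the list passed without the filter on low values, without the variance trend or without PBS replicate 1, 1 passed without PBS replicate 2, and 3 passed without either of the fluoxetine libraries. PPFIA4 is not on this list. Its value of -1.41, for which it was chosen, was near those of NDRG1 and ALDOC and well below the list median of -0.53. Values of the list ran from -2.04 to -0.06, and LDHA, its most abundant gene, had -0.20 (adjusted p = 0.541 from limma). A shared cause was not tested.

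**Figure D5:**
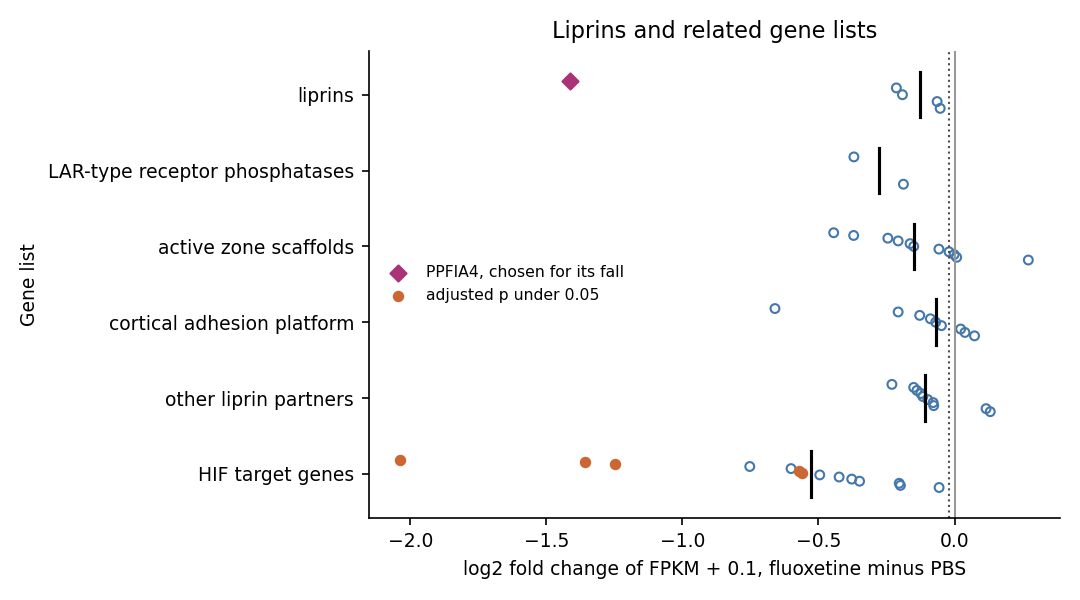
Log2 fold change, fluoxetine minus PBS, of each tested gene in the liprin family and in 5 related lists, with the median as a black bar (for the liprins, of the 4 paralogues), the median of all tested genes as a dotted line and filled orange points for an adjusted p under 0.05 from limma. Orange points appear in the HIF target genes, and PPFIA4 (purple, described without a test) lies at -1.41, beyond every other gene shown except CA9.

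On the log2(FPKM + 0.1) scale, the profiles nearest to that of PPFIA4 over the 4 libraries were those of SLC25A47, ANPEP, DUOX2, IGFBP4, ALDOC, TCEAL8, EMP1, TGM2, IL1B and GPX2, in this order. Nearness was the Euclidean distance between values centred on the mean of each gene, and it ran from 0.148 for SLC25A47 to 0.286 for GPX2. In all 10 the groups did not overlap and fluoxetine was lower, which follows from how they were found. For 5 of them (SLC25A47, ANPEP, TCEAL8, IL1B and GPX2), with 6 to 24 reads per PBS library and 1 to 4 per fluoxetine library, the nearness depends on the pseudocount. Limma voom on reads gave these 5 log2 fold changes of -3.06 to -2.16, against -1.52 for PPFIA4, and they reached a mean of 0.1 FPKM only through the PBS libraries. The other 5 had -1.76 to -1.26. ALDOC was the one abundant gene among them, with 14.3 and 13.7 FPKM with PBS and 5.85 and 5.82 FPKM with fluoxetine, and it was the only one on the HIF list. DUOX2, which makes hydrogen peroxide at the cell surface, had 0.727 and 0.706 FPKM with PBS and 0.208 and 0.235 FPKM with fluoxetine. IGFBP4, which binds insulin-like growth factors, had 0.842 and 0.979 FPKM against 0.313 and 0.221 FPKM. No other liprin was among the 10.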

How the data were processed

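RNA of 2 PBS-treated and 2 fluoxetine-treated samples of LASCPC-01 cells was analysed, grouped by the treatment labels. The authors deposited FPKM per gene and library. The submitters' processing notes name fastp, HISAT2, HTSeq and GRCh38, and the annotation and versions are not given in the sources used here. The labels name a stranded kit and the study's methods another kit, and the counting mode is not stated.

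The comparison was fitted to FPKM, the deposited unit, with limma voom on recovered reads as an alternative. The count-based test that the study names was not run. Values were taken as log2(FPKM + 0.1), genes averaging under 0.1 FPKM were dropped, and groups were compared by limma 3.58.1 (trended eBayes, R 4.3.3) with p-values adjusted by Benjamini-Hochberg over all genes kept. Fold changes on this scale understate those of low genes. Calls have an adjusted p under 0.05.

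Depth, gene lengths and whole reads were recovered by finding the library depth at which GENCODE 29 exon lengths gave whole reads, then the smallest gene length giving whole reads in all 4 libraries, within the rounding of the deposited digits. This solved 100% of the 16080 genes above 0. True reads can be multiples of these, but for all 6 liprins the next multiple needs a length above that of all exons in GENCODE 29. A read means 1 unit of the authors' counting. The steps were checked on simulated data. Python 3.11.15, scipy 1.17.1 and biopython 1.88 were used.

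Promoters came from RefSeq (GRCh38.p14). Both strands were searched. All 6 liprins matched. The members and lists were chosen with earlier results of these data known. Named genes were the liprins, list members that were called, did not overlap between groups, were the most abundant or had the largest change, the 5 nearest listed genes on each side of PPFIA4, and the 10 genes most like it. Some genes that meet this rule or served as markers are not reported here. Alternatives covered the pseudocount, filter, scaling, variance model, replicate block, voom on recovered reads and leaving out each library.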

Additional observations from a re-analysis of the deposited data

How the results depend on the processing

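With a pseudocount of 0.01 or 1, the log2 fold change of PPFIA4 was -1.51 or -0.88, and it was -1.52 after rescaling to TPM, -1.32 with quantile normalization and -1.52 with limma voom on recovered reads. With 1 library left out it ran from -1.46 to -1.36, and under every alternative tried it was negative. The fall in its share of α-liprin FPKM ran from -7.998 to -7.17 percentage points with 1 library left out. Both rest on the values for which PPFIA4 was chosen, so their stable sign is not independent evidence of a fall. None of the 4 tested paralogues passed an adjusted p of 0.05 under any alternative that gave a value. Signs near 0 turned for PPFIA3, which was 0.043 with quantile normalization and ran from -0.27 to 0.14 with 1 library left out, and for PPFIA1, which was 0.0083 with the gene length trend removed. PPFIA2, with 2 to 8 reads per library, was -0.05, and it was -0.23 with a pseudocount of 0.01, -0.39 with limma voom, and -0.16 to 0.061 with 1 library left out. PPFIBP2 was not tested at a mean FPKM of at least 1.

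Over all genes, 30 were called (27 lower, 3 higher), 16 with quantile normalization, 51 with limma voom, and 0 without the filter or without the variance trend, where 1175 and 933 had an unadjusted p under 0.05. Without PBS replicate 1 or 2, 2 and 3 genes were called, and without fluoxetine replicate 1 or 2, 9 and 12. Of the HIF target genes, 8 were called with limma voom, 0 without the filter or the trend, and 0 to 3 with 1 library left out. Under a replicate block, 64 genes (47 lower, 17 higher) and 10 HIF target genes were called, and no paralogue. Deviations from group means had a correlation of 0.035 between libraries sharing a number, and nothing says that the numbers pair the samples. No gene of the other 5 lists was called under any alternative.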
